A study of Ogataea polymorpha NCYC 495 leu1.1 with 8 samples.

Results

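The 4 genes described here encode the core enzymes of peroxisomal beta-oxidation in the yeast Hansenula polymorpha, together with a carrier of the peroxisomal membrane. They are Hp33g132 (fatty-acyl-CoA oxidase), Hp8g261 (multifunctional enzyme), Hp24g1381 (3-ketoacyl-CoA thiolase) and Hp44g158 (adenine nucleotide transporter), and they were chosen by name among 5999 H. polymorpha genes on the array. Cells of strain NCYC 495 leu1.1, a leucine auxotroph, were grown on glucose at 37 °C to an OD of 2.3 and then transferred at an OD of 0.2 to fresh medium with 0.5% methanol as the only carbon source for 2 h. This was done with 4 independent cultures, and RNA of each culture on glucose and on methanol was hybridised together on 2 two-colour arrays with exchanged dyes, which gave 8 arrays. The shift replaced the carbon source, renewed the medium and lowered the cell density in a single step, so that their contributions cannot be told apart. All samples were bulk RNA of the same strain, in which a rise in every cell cannot be told apart from a larger rise in some of the cells.

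Yeasts break down fatty acids in peroxisomes. In each round of beta-oxidation, acyl-CoA oxidase introduces a double bond and passes electrons to oxygen, which yields hydrogen peroxide; the multifunctional enzyme adds water and oxidises the product; and thiolase releases acetyl-CoA and a shortened acyl-CoA. In Saccharomyces cerevisiae, the peroxisomal adenine nucleotide carrier supplies ATP for the activation of fatty acids inside the organelle. Methylotrophic yeasts use the same organelle to oxidise methanol, and their peroxisomes enlarge on this substrate. The best match that the study's annotation gives for Hp8g261 is the peroxisomal trifunctional enzyme HDE of Candida tropicalis, and for Hp44g158 it is the PMP47B protein of Candida boidinii, an integral protein of the peroxisomal membrane.

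The arrays gave processed signals, which are spot brightness after spatial detrending and dye normalisation. The share of gene spots well above background was 90.6% to 98.3% per channel, and the 4 genes passed this mark on all 8 arrays in both channels, with 0 of them saturated. Dye-swapped arrays of the same culture gave log2 ratios that correlated across genes at r of 0.982 to 0.985; genes are not independent replicates. Cultures 2 to 4 correlated among each other with r between 0.968 and 0.978, whereas culture 1 correlated with them at 0.894 to 0.934, so that culture 1 stood somewhat apart. The results for the 4 genes are therefore also given without it. The methanol enzymes alcohol oxidase (AOX, Hp19g106) and dihydroxyacetone synthase (DHAS, Hp27g356), which glucose represses, were read to check the labels. The AOX signal lay between 3041 and 9578 on glucose and between 14381 and 328807 on methanol. That of DHAS lay between 350.4 and 1275 on glucose and between 2928 and 51084 on methanol.

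All 3 enzymes of the pathway had higher signals on methanol in each of the 4 cultures, with mean rises of 11.8-fold for the oxidase, 20.1-fold for the multifunctional enzyme and 15.1-fold for the thiolase. The transporter rose 2.79-fold, also in 4 of 4 cultures. A gene was called changed where its fold change was above 2 in either direction, the p-value of limma's moderated test over the 4 cultures, adjusted by Benjamini-Hochberg over 5999 genes, was below 0.05, and its A-value (the mean log2 signal of both dyes) was at least 6. By this rule 4 of 4 genes were called up and 0 down, while 19.1% of all genes on the array were called up and 21.4% down. The study had already listed these 4 genes among upregulated beta-oxidation genes from these same samples, so that this count is not independent evidence of a direction. The median log2 ratio was 3.73 over the 4 genes and 0.041 over all genes.

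**Figure D1:**
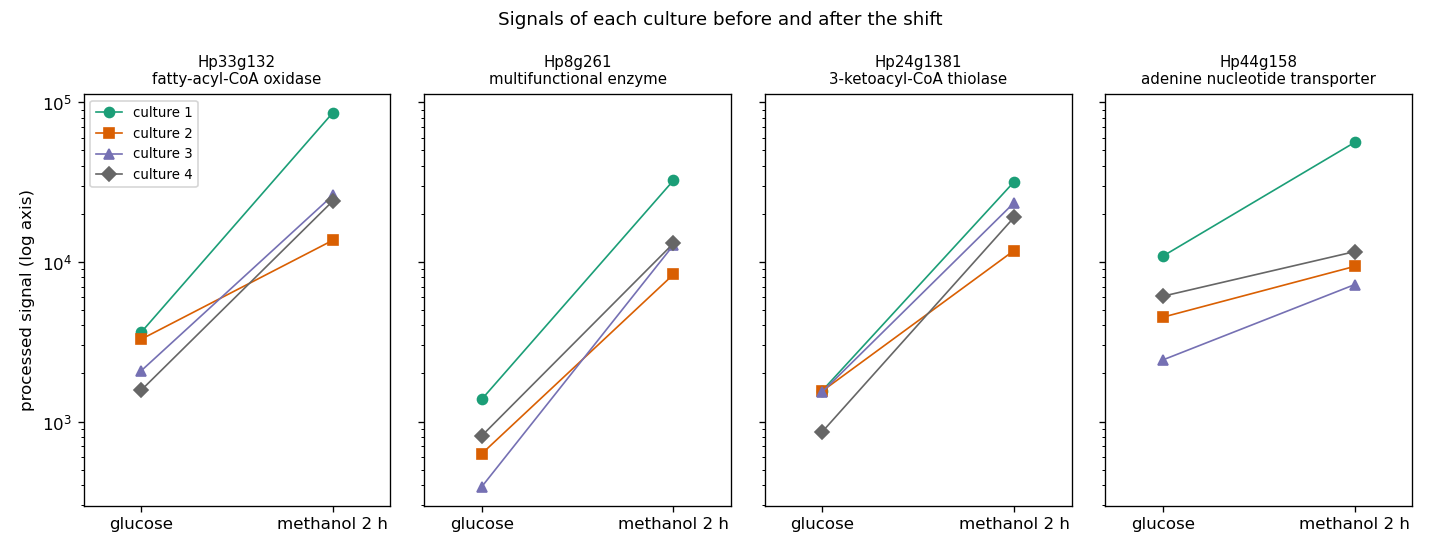
Processed signal (log axis) of each of the 4 genes on glucose and after 2 h on methanol, with a line for each of the 4 cultures; signals are to be compared within a panel only, since each gene has its own probe. Every line rises, within each culture more steeply for the 3 enzymes than for the transporter Hp44g158, and culture 1 has the highest methanol signal in all 4 panels.

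Hp33g132 encodes the acyl-CoA oxidase, the first and oxygen-consuming enzyme of the cycle. Its processed signals on glucose were 3618, 3276.5, 2077 and 1570 in cultures 1 to 4, and on methanol they were 85955, 13659, 26112 and 24066.5. The lowest methanol signal was thus 3.78 times the highest glucose signal, and the groups did not overlap. The log2 ratio was 3.56 ± 1.07 (SD, n = 4), an 11.8-fold rise with a 95% interval of 5.99 to 23.0 (limma, adjusted p = 0.00036). The rise differed greatly between the cultures: the log2 ratio was 4.57 in culture 1 and 2.06 in culture 2, with 3.65 and 3.94 in cultures 3 and 4. In culture 2 the glucose signal was the second highest and the methanol signal the lowest, without scaling for the overall brightness of the arrays. With such scaling (Aquantile, described below) the culture 2 glucose signal was the highest, at 3757. The methanol signal of culture 2 was still the lowest, at 15661.5. An SD as large as that of Hp33g132 or smaller was found for 98.2% of the genes on the array. Without culture 2 the mean rise was 16.6-fold, and without culture 1 it was 9.30-fold (limma, adjusted p = 0.00032).

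Hp8g261 encodes the multifunctional enzyme, which carries out the hydration and the second oxidation step. Its signals on glucose were 1377, 627.8, 390.1 and 813.2 in cultures 1 to 4, and on methanol 32365.5, 8341, 12732 and 13056. The groups were well separated, the lowest methanol signal being 6.06 times the highest glucose signal. The log2 ratio was 4.33 ± 0.58 (SD, n = 4), which is a 20.1-fold rise with a 95% interval of 13.7 to 29.6 (limma, adjusted p = 2.22e-05). This was the highest mean ratio and the smallest SD among the 4 genes, and it ranked 109 among the 5999 genes. The highest log2 ratio, 5.03, was found in culture 3, where the glucose signal was the lowest, and the lowest, 3.73, in culture 2. Without culture 1 the rise was 19.1-fold.

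Hp24g1381 encodes the thiolase, which completes the cycle. On glucose its signals were 1561, 1552, 1533 and 862.7 in cultures 1 to 4. Without scaling for overall brightness, cultures 1 to 3 were thus nearly alike and culture 4 was lower. After Aquantile scaling the glucose signals were 1172, 1790, 2168 and 704.8, so that cultures 1 to 3 were no longer alike, while culture 4 was still the lowest. On methanol the signals were 31694, 11770, 23425 and 18976. The lowest of these was 7.54 times the highest glucose signal, and the groups did not overlap. The log2 ratio was 3.91 ± 0.70 (SD, n = 4), a 15.1-fold rise with a 95% interval of 9.57 to 23.8 (limma, adjusted p = 5.43e-05). It was highest in culture 4, at 4.46, and lowest in culture 2, at 2.92, with 4.34 and 3.93 in cultures 1 and 3. Without culture 1 the rise was 13.7-fold.

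Hp44g158 encodes the adenine nucleotide transporter. Its signals on glucose were 10859, 4505, 2431 and 6094 in cultures 1 to 4, and on methanol 55957.5, 9368, 7201 and 11589. The signal rose within every culture, yet the groups overlapped, because the glucose signal of culture 1 exceeded the methanol signals of cultures 2 and 3. The log2 ratio was 1.48 ± 0.65 (SD, n = 4), a 2.79-fold rise with a 95% interval of 1.82 to 4.28 (limma, adjusted p = 0.00229). It was 2.37 in culture 1, 1.06 in culture 2, 1.57 in culture 3 and 0.93 in culture 4, so that culture 4 by itself did not reach a 2-fold rise. Without culture 1 the rise was 2.27-fold (limma, adjusted p = 0.00054). When limma tested for a change of more than 2-fold rather than for any change, the transporter was no longer called (adjusted p = 0.158), whereas the 3 enzymes were (largest adjusted p = 0.00214).

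The separation of the conditions was read against the whole array. The lowest methanol signal exceeded the highest glucose signal for the 3 enzymes but not for the transporter, and for 20.0% of all genes. These signals also carry differences in overall brightness between arrays. After scaling the arrays to a common distribution of brightness (Aquantile), which leaves the ratios as they are, the transporter signals lay between 3456 and 8399 on glucose and between 9439 and 43282 on methanol and no longer overlapped. The same held for all 4 genes and for 35.4% of the genes on the array. The lowest methanol signal was then 9.36 times the highest glucose signal for the multifunctional enzyme and 6.26 times for the thiolase, the reverse of their order before scaling. Culture 1 still had the highest methanol signal for Hp33g132, Hp8g261 and Hp44g158 after this scaling, but for the thiolase Hp24g1381 culture 3 was then the highest, at 33115 against 23803 in culture 1.

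The ratios of the 4 genes were compared with each other within each culture, in 6 pairs. The log2 ratio of each enzyme exceeded that of the transporter in 4 of 4 cultures. The mean difference was 2.08 ± 0.82 (SD) for the oxidase, with a 95% interval from 0.76 to 3.39, 2.85 ± 0.55 for the multifunctional enzyme, from 1.98 to 3.72, and 2.44 ± 0.76 for the thiolase, from 1.22 to 3.65. These intervals, which assume normally distributed differences, exclude 0. For each of these 3 pairs the exact two-sided sign-flip test over the 4 cultures gave p = 0.125 (0.25 after Benjamini-Hochberg adjustment over the 6 pairs), which is the smallest p that this test can give with 4 cultures, so that the test cannot reach 0.05 here. Among the enzymes the mean differences were smaller and their intervals covered 0. The log2 ratio of the oxidase minus that of the multifunctional enzyme was -0.77 on average, with an interval from -2.17 to 0.62 (exact p = 0.25). For the oxidase minus the thiolase it was -0.36, with an interval from -1.09 to 0.37 (exact p = 0.25), and for the multifunctional enzyme minus the thiolase 0.42, with an interval from -0.68 to 1.51 (exact p = 0.375). In 1 of 4 cultures the sign was the other way for each of these 3 pairs, and each interval reached beyond a 2-fold difference on one side.

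Culture 2 had the lowest log2 ratio for all 3 enzymes. It was also the lowest for 35.5% of the 1145 genes called up, a share that culture 1 equalled. The culture with the highest ratio differed between the enzymes, being culture 1 for the oxidase, culture 3 for the multifunctional enzyme and culture 4 for the thiolase. For AOX and DHAS the lowest ratio was likewise in culture 2, at 1.86 and 2.94, and the highest in culture 1, at 5.10 and 5.32.

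Both dye orientations gave a rise for the 4 genes, and the mean ratios were nearly the same for the oxidase and the transporter. The log2 ratio with methanol in Cy5 minus that with glucose in Cy5 was 0.063 ± 0.227 (SD, n = 4) for the oxidase, 0.344 ± 0.060 for the multifunctional enzyme, 0.165 ± 0.095 for the thiolase and 0.025 ± 0.040 for the transporter. The differences for Hp8g261 and Hp24g1381 were positive in 4 of 4 cultures and larger than the median size over all genes, 0.129. A difference of the size of that of Hp8g261 or smaller was found for 88.5% of the genes. For Hp8g261 the rise was 17.8-fold on arrays with glucose in Cy5, against 22.7-fold on those with exchanged dyes. Duplicate spots on the same array gave log2 ratios that differed by -0.275 at the most, for the oxidase with glucose in Cy5 in culture 1 (second spot minus first), and the median size of this difference was 0.033 to 0.045 for the 4 genes.

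**Figure D2:**
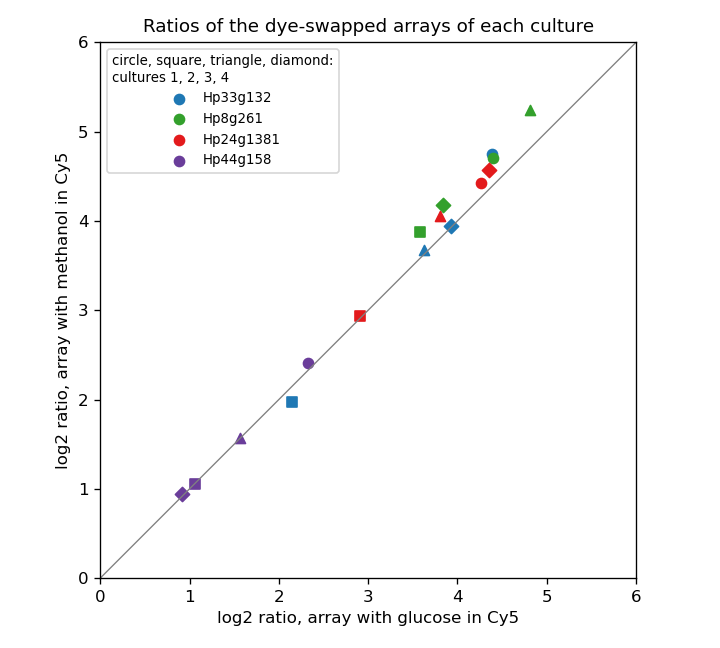
Log2 ratio (methanol over glucose) of each of the 4 genes on the array with methanol in Cy5 plotted against that on the array with glucose in Cy5, a point for each culture; the line marks equal ratios. Points lie close to the line and spread along it, from 0.92 for the transporter in culture 4 to 5.24 for the multifunctional enzyme in culture 3, and those of Hp8g261 and Hp24g1381 lie above it in all 4 cultures.

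The other genes of the pathway were taken from the study's own list of genes for fatty acid beta-oxidation. The study chose this list on these same samples, so that it is not independent evidence of a direction. All 10 were called up and 0 down, against 19.1% of all genes called up, and their median log2 ratio was 4.96 against 0.041 over all genes. Their folds ranged from 6.28 to 90.8 and the largest adjusted p (limma) was 0.000133.

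On the import side, the peroxisomal ABC transporter, which in S. cerevisiae brings long-chain acyl-CoA into the organelle, is encoded by Hp8g534 (subunit 1) and Hp33g390 (subunit 2). They rose 7.40-fold, with a log2 ratio of 2.89 ± 0.65 (SD, n = 4), and 6.28-fold, with 2.65 ± 0.31. Both ratios lay between that of the adenine nucleotide transporter and those of the enzymes. As for the 3 enzymes, culture 2 was the lowest for both subunits, at 2.30 and 2.35; of the 8 remaining pathway genes none was lowest in culture 2.

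Catalase (Hp27g292), which decomposes hydrogen peroxide from the acyl-CoA oxidase and, on methanol, also that from alcohol oxidase, rose 40.3-fold, at a log2 ratio of 5.33 ± 0.40. Acetyl-CoA from the thiolase can enter the glyoxylate cycle, of which isocitrate lyase (Hp29g305) rose 28.8-fold and malate synthase (Hp43g61) 8.07-fold. Isocitrate dehydrogenase (Hp36g14), which also acts on isocitrate, rose 24.4-fold. The log2 ratios of isocitrate lyase and isocitrate dehydrogenase varied little between cultures, with SDs of 0.19 and 0.16, in contrast to malate synthase with 0.61. Their signals did vary: those of isocitrate lyase differed up to 5.71-fold between cultures on glucose and 4.95-fold on methanol, without scaling for overall brightness. Among the genes of the carnitine shuttle, which carries acetyl units to the mitochondria, carnitine acetyl-CoA transferase (Hp47g959) rose 34.7-fold, YAT1 (Hp39g121) 40.6-fold, YAT2 (Hp8g466) 33.8-fold and the mitochondrial carrier CRC1 (Hp15g677) 90.8-fold.

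The SD over cultures was 0.58 to 1.07 for the 3 enzymes and 0.65 for the transporter, whereas it was 0.086 to 0.65 for the 10 other genes, with a median of 0.33, and had a median of 0.26 over all genes. The smallest belonged to YAT1, whose log2 ratio was 5.22, 5.34, 5.39 and 5.42 in cultures 1 to 4. The dye difference was larger for several of these 10 genes. The ratios of 6 of them (Hp47g959, Hp15g677, Hp39g121, Hp36g14, Hp29g305 and Hp8g466) were larger with methanol in Cy5 by 0.71 to 1.69 on the log2 scale; for CRC1 the rise was 52.1-fold on arrays with glucose in Cy5, against 158-fold with exchanged dyes. Catalase was larger by 0.61 in that orientation, at 49.7-fold against 32.6-fold. The ratio of each culture averages both orientations equally. For the 4 genes described here the mean dye difference was at most 0.344.

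**Figure D3:**
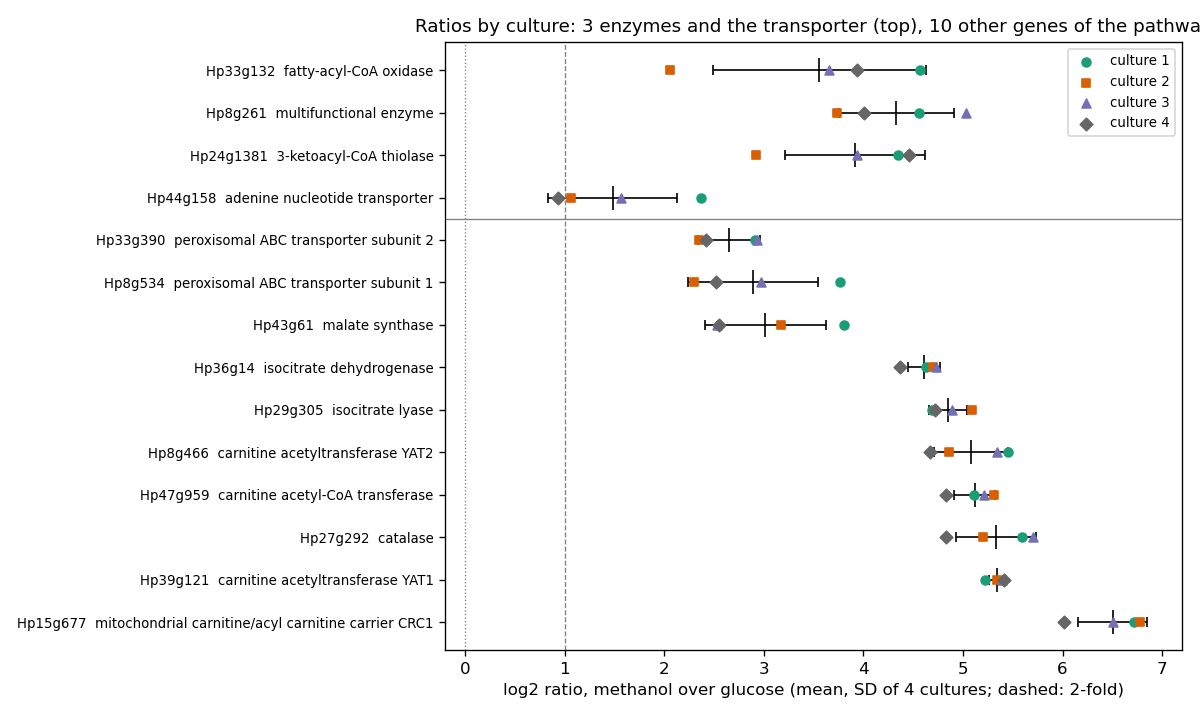
Log2 ratio (methanol over glucose) of the 3 enzymes and the transporter (above the line) and of 10 other genes of the pathway, with a symbol for each of the 4 cultures; vertical ticks and bars give the mean and SD, the dashed line a 2-fold change. The points of Hp33g132 spread from 2.06 to 4.57 while those of YAT1 (Hp39g121) lie within 5.22 to 5.42, and the transporter Hp44g158 has the lowest mean, 1.48.

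Another 3 genes for peroxisomal acyl-CoA metabolism were read from the best matches in the study's supplementary annotation. Only the upper part of that annotation, ordered by ratio, could be read, so that their direction was fixed by the choice. Hp5g450, matching a 2-hydroxyphytanoyl-CoA lyase of the rat, had signals of 402.7 to 1101 on glucose and 8686 to 30102 on methanol and rose 21.0-fold. Hp31g560, matching 2,4-dienoyl-CoA reductase of C. tropicalis, an auxiliary enzyme for unsaturated fatty acids, rose 2.73-fold (log2 ratio 1.45 ± 0.41). Hp15g865, matching the acid-CoA ligase FAT2 of S. cerevisiae, was dim: its glucose signals were 7.16 to 21.5, well above background on 3 of 8 arrays only, and its methanol signals were 894.7 in culture 1 and 53.1 to 62.6 in the others. With an A-value of 5.18 it was below the minimum of 6 and was not called.

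For each of the 4 genes, the 3 genes with the most similar signal pattern were sought among 5477 genes with an A-value of at least 6. Likeness was measured as the root mean square distance of log2 signals over the 8 RNA samples, each gene centred on its own mean, and it describes these samples only, since neighbouring signals share arrays and overall brightness. The multifunctional enzyme Hp8g261 had the closest neighbours. They were Hp5g510a, with no match given, at a distance of 0.158, Hp15g707, matching a subunit of NADH-ubiquinone oxidoreductase, at 0.198, and Hp51r1469, matching a Penicillium chrysogenum protein, at 0.213, against a median of 2.21 over all genes compared. Their rises were 20.3-fold, 19.7-fold and 24.9-fold.

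The patterns nearest to the oxidase Hp33g132 were those of Hp33g47, matching the lipid transfer protein POX18 of C. tropicalis, at 0.383, Hp33g222, matching a probable membrane protein of S. cerevisiae, at 0.420, and Hp39g778, matching a glucoamylase, at 0.443. They rose 8.37-fold, 12.6-fold and 10.4-fold. Hp39g778 was also the third nearest gene to the thiolase Hp24g1381, at 0.423, after the hexose transporter-like gene GCR1 (Hp47g129) at 0.350 and Hp39g790, matching a hypothetical protein of S. cerevisiae, at 0.408. The last pair rose 18.9-fold and 19.0-fold. Nearest to the transporter Hp44g158 was Hp27g385, the peroxisomal Lon protease, a quality control enzyme of the peroxisomal matrix, at 0.238. Hp27g385 rose 2.02-fold on average (limma, adjusted p = 0.0168). Its log2 ratio was 2.00, 0.58, 1.12 and 0.35 in cultures 1 to 4. Culture 1 thus raised the mean, and cultures 2 and 4 by themselves did not reach a 2-fold rise. Hp5g148, matching an endo-1,3-beta-glucanase, and Hp24g212, with a weak match to PHO4, followed at 0.283 and 0.289 and rose 3.40-fold and 2.68-fold.

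None of the 4 genes was among the 3 nearest of another. The thiolase was the 8th nearest gene to the oxidase (distance 0.461) and the oxidase the 10th nearest to the thiolase, and subunit 1 of the ABC transporter, Hp8g534, was the 5th nearest to the oxidase. The multifunctional enzyme was farther from both, at 0.620 from the oxidase and 0.639 from the thiolase. The adenine nucleotide transporter was at 1.22 to 1.52 from the enzymes. Ranked by distance to the transporter, the enzymes stood at place 3273 or further. Ranked by distance to each enzyme, the transporter stood at place 610 for the oxidase, 677 for the multifunctional enzyme and 1008 for the thiolase. It was thus nearer to each enzyme than the median gene compared, so that the place depended on the gene ranked from.

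**Figure D4:**
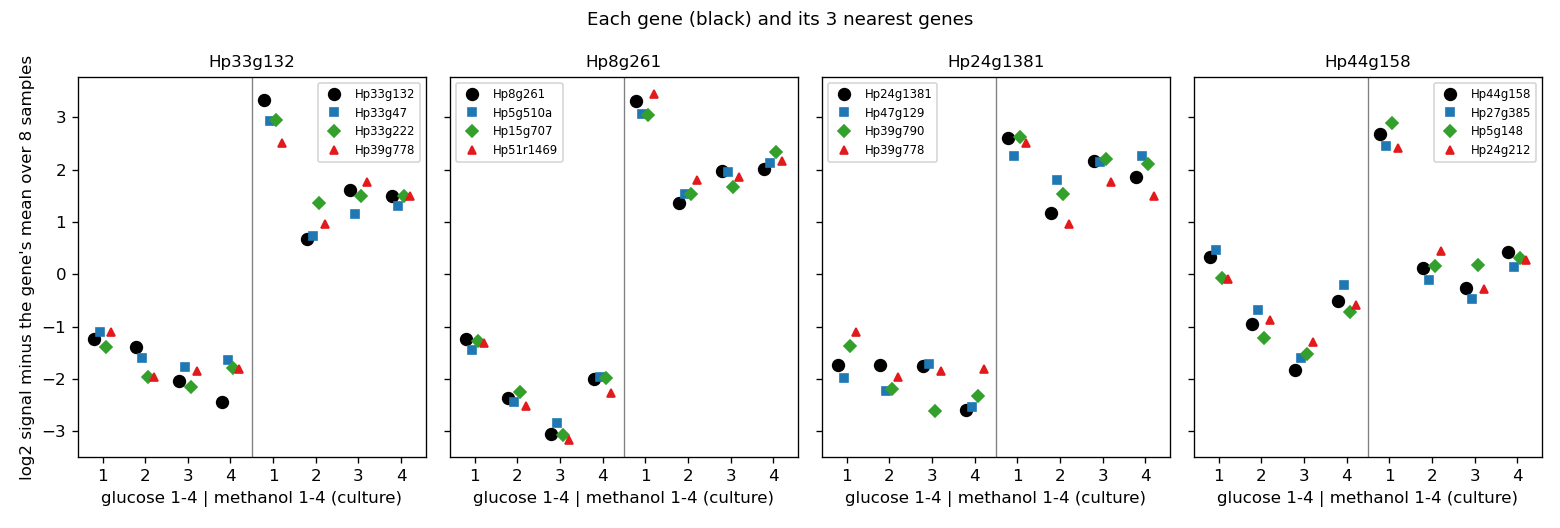
Log2 signal minus the gene's own mean over the 8 RNA samples (glucose and methanol, cultures 1 to 4) for each of the 4 genes, in black, and its 3 nearest genes. The points of Hp8g261 and its neighbours lie closest together, at distances of 0.158 to 0.213. The methanol samples of cultures 2 to 4 lie between -0.27 and 0.42 for Hp44g158. For the 3 enzymes they lie between 0.68, for the oxidase Hp33g132 in culture 2, and 2.17.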

How the data were processed

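Total RNA was labelled as cRNA and hybridised to 8 two-colour Agilent arrays by the authors, who deposited the Feature Extraction 9.5 output of each array. Per the file headers and the methods, the authors made the intensity values used here (processed signals) by spatial detrending without background subtraction, followed by dye normalisation. Their table of log10 ratios was also deposited; its values stand 5 positions away from the identifiers and, after this shift, equalled the ratios of Feature Extraction (largest difference 0), so that it served as an alternative.

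The log2 ratio of methanol over glucose was taken per spot, leaving out spots marked as outliers, and averaged over the 2 spots and the 2 arrays of a culture (n = 4). In limma 3.58.1 (R 4.3.3) the mean of these values was tested against 0 for every gene, with Benjamini-Hochberg adjustment over 5999 genes. Glucose and methanol RNA of a culture were paired, as the methods describe 4 independent cultures that were sampled and then shifted. The departures of both from their condition means correlated at 0.247 to 0.453. Both signals came from the same spots of the same arrays, so that this correlation cannot by itself show the pairing of the cultures. Alternatives were other background corrections and scalings (normexp with loess, loess alone, median centring, Aquantile), the ratios of Feature Extraction and of the deposited table, arithmetic means, either dye orientation, a dye term, kept outlier spots, other signal minimums, limma's treat, Cyber-T over spots, unadjusted p-values, the row on the slide as a block, no replicate block, and each culture left out. The steps were tested on simulated data. The number of arrays limits the precision.

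Named genes were the 4 genes, the 10 other genes of the study's list, 3 accessory genes and the 3 nearest genes of each; AOX and DHAS served to check the labels. The genes and lists were chosen with earlier results of these data known. Of the gene identifiers, 0 of 5999 occurred in the RefSeq table given for the organism, so that no positions or sequences are printed. Figures were made with matplotlib 3.10.9.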

Additional observations from a re-analysis of the deposited data

Results flagged for a closer look

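For 1 of 22 sets of 4 culture values, a single culture lay far from the others. The glucose signal of the thiolase Hp24g1381 was 862.7 in culture 4 and 1533 to 1561 in cultures 1 to 3, so that on the log2 scale the gap made up 0.970 of the whole range. Chance alone marks about 1 in 20 such sets. After Aquantile scaling between arrays the glucose signals were 1172, 1790, 2168 and 704.8 and the gap was 0.453 of the range, and after normexp and loess it was 0.499, so that culture 4 then no longer stood apart in this way.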

How the results depend on the processing

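The calls of the 4 genes and of the 10 other pathway genes were recomputed under 22 alternatives, and 1 call changed: tested against a 2-fold change, the transporter Hp44g158 was not called. The log2 ratios ranged from 3.22 to 4.05 for Hp33g132, 4.10 to 4.53 for Hp8g261, 3.73 to 4.25 for Hp24g1381 and 1.18 to 1.66 for Hp44g158, in each case with the lowest and highest values among those that left out a culture. Without the replicate block, with glucose and methanol as separate samples, the ratios were the same (3.56, 4.33, 3.91 and 1.48). With equal numbers in both conditions this follows by arithmetic and is no check of the ratios. The adjusted p-values did change and were smaller for all 4 genes, for Hp33g132 3.99e-19 against 0.00036 (limma). These smaller values are not stronger evidence. The log2 signals of Hp33g132 had SDs of 0.57 on glucose and 1.12 on methanol over only 4 cultures, and the fit without the block leaves out their pairing. With each culture left out, between 1108 and 1170 genes of the array were called up and between 1250 and 1292 down. The count called up was 760 when tested against a 2-fold change, a stricter null hypothesis by construction, against 1145. After normexp and loess the mean log2 glucose level was higher for all 4 genes. It was 10.879 for Hp24g1381, against 10.386, and 11.749 for Hp33g132, against 11.284. For Hp8g261 it was 10.033 against 9.499, and for Hp44g158 12.795 against 12.341. The mean methanol levels of all 4 genes were higher as well, so that this shift was not particular to the thiolase. The sign of all 6 differences between the genes was kept in all alternatives run. Each value rests on 4 cultures at a single time point.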
